A study of Homo sapiens with 6 samples.

Results

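The nuclear hormone receptors are described here across control and 4HC-treated COV434 cells. The 46 members were taken by gene symbol from a fixed list of the family, and 42 of them had a row in the table of 16798 coding genes. RXRG, NR1H4, NR2E1 and NR0B2 were not in the gene table used and were not analysed here. A member was called expressed when its level was at least 1 TPM (reads scaled to transcript length and then to a fixed total of 1000000 per sample) in all 3 controls. By this measure 28 of the 42 were expressed, which is 66.7%, beside 11109 genes and 66.1% of the whole table.

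RNA-seq was performed on 6 samples of COV434, a human immortalized line labelled as granulosa cells with a WT genotype and grown in DMEM with fetal bovine serum. The 3 treated samples received 15 µM 4HC, an active metabolite of cyclophosphamide (CTX), for 24 h, and the labels do not say what the 3 controls received. The comparison addresses how the transcriptome of this line responded to the metabolite. Nothing in the labels says that the samples came from separate cultures, so the p-values measure only the spread between these samples, which may be technical.

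Total expected counts were between 16352898 and 16702316 in control and between 16133786 and 16383698 in 4HC. The first principal component, with 53.4% of the variance, separated the 2 groups. The line was checked against 12 granulosa cell markers, of which 11 were in the table and 3 were expressed (AMH, KITLG and WT1). FOXL2 was listed at 0 in all 3 controls, and FSHR, CYP19A1, STAR, INHBB and GATA4 were each below 0.1 TPM in every sample, so most defining markers of granulosa cells were absent or nearly so. The summed TPM of the granulosa markers was 174.6 to 182.6 in control and 143.5 to 147.1 in 4HC. Most of it came from WT1 (mean 133.2 in control and 106.5 in 4HC) and KITLG (38.6 and 32.5). AMH was at 5.34 and 5.39, with control samples between 3.94 and 6.73. Neither AMH (log2 fold change 0.03) nor the low INHA (-0.38) passed an adjusted p of 0.05 in edgeR. The median log2 fold change of the 4 tested granulosa markers was -0.29. The lower sum thus reflects mainly WT1 and KITLG, and the values do not settle whether the other markers fell. Of 14 markers of other cell types, 5 were expressed: ACTA2 (control mean 323.3 TPM), LUM (43.2), ZP3 (18.7), DCN (11.5) and CD68 (1.67). Of the 14, 7 were tested and 0 passed an adjusted p of 0.05 in edgeR, beside 36.4% of all genes tested. The number was 0 also at an unadjusted p under 0.05, and 0 in DESeq2 by either. The summed TPM of the 14 markers, mostly ACTA2, was 389.6 to 410.1 in control and 398.5 to 403.3 in 4HC.

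Nuclear receptors are transcription factors that bind DNA through zinc fingers, and many are switched by small lipophilic ligands such as steroids, retinoids, thyroid hormone, fatty acids and oxysterols. Steroid receptors wait for hormone in complex with heat shock chaperones, whereas many others sit on DNA as heterodimers with a retinoid X receptor and exchange corepressors for coactivators when ligand binds. Orphan members have no established physiological ligand and are controlled largely through their own abundance. In the ovary, estrogen receptor beta, the progesterone receptor and the NR5A receptors are known for their parts in follicle growth, ovulation and steroid synthesis.

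No tested member reached a fold change of 2 between 4HC and control. Of the 29 members that passed the count filter, 10 were called at an adjusted p under 0.05, which is 34.5% beside 36.4% of the 12368 genes tested, so the share of members called was near the background and is not a result about the family. NR4A1, NR4A3 and RXRA were upregulated, which is 10.3% of the tested members beside 19.2% of all genes tested. THRA, NR1D2, NR2F1, NR2F2, NR3C1, NR4A2 and NR5A2 were downregulated, which is 24.1% beside 17.1% of all genes tested. The median log2 fold change was -0.09 over the tested members and 0.005 over all tested genes. Its median absolute size was 0.32 over the called members and 0.23 over all called genes. A value below 0 was found for 19 of the 29 members, or 65.5%, beside 49.1% of all tested genes. The study's methods state a threshold of a fold change of at least 2 with an unadjusted p under 0.05. By it, 0 members were called in edgeR and 0 in DESeq2, beside 142 genes, or 1.15%, of all those tested in edgeR. The absence of members past this threshold is thus near the background and is not a result about the family. At an unadjusted p under 0.05 alone, 15 members (51.7%) passed in edgeR, beside 44.5% of the genes tested, and 9 (31%) in DESeq2, beside 34.9% of the same genes. These are bulk samples, in which fewer cells of a kind and less RNA per cell cannot be told apart.

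**Figure D1:**
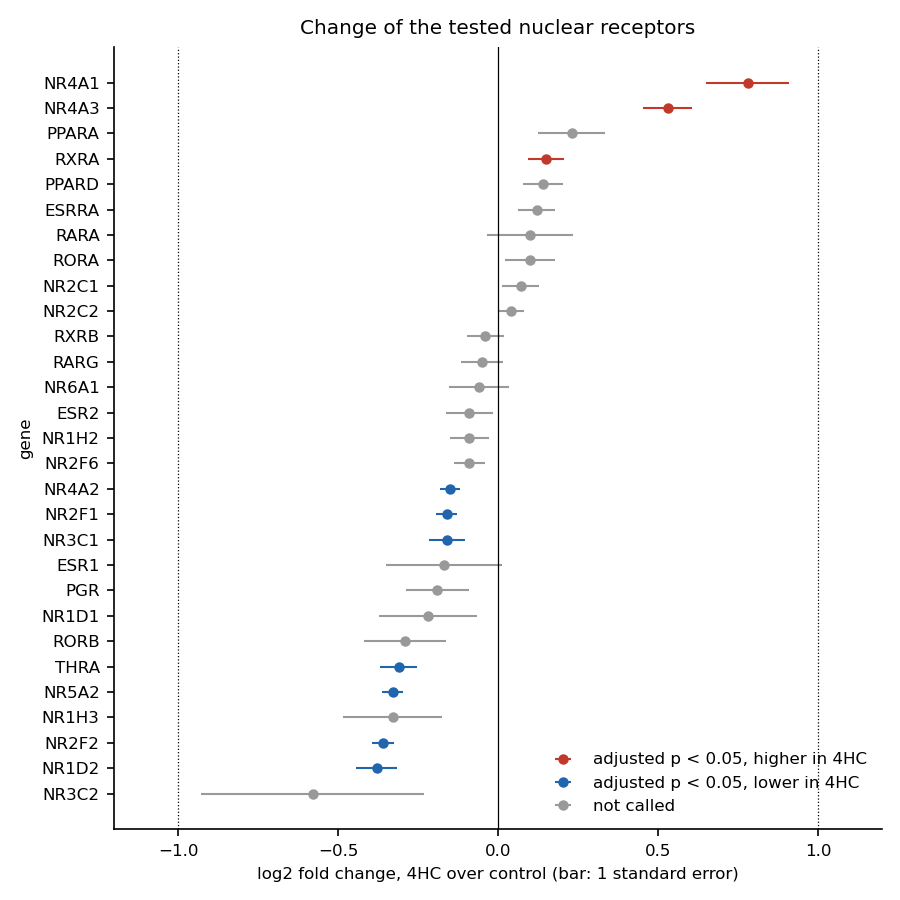
Log2 fold change of 4HC over control for the 29 tested nuclear receptors, with bars of 1 standard error from the edgeR fit; red and blue points were called at an adjusted p under 0.05 and dotted lines mark a fold change of 2. NR4A1 lies farthest to the right at 0.78, the 7 members called lower lie between -0.38 and -0.15, and no estimate reaches a dotted line.

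Levels spanned a wide range before treatment. In control, mean TPM ran from 1.19 for RORB to 271.8 for NR2F1, with a median of 10.7 over the 28 expressed members. NR2F1 (271.8 ± 13.6 TPM, SD, n = 3), NR4A2 (210.6 ± 1.17), NR5A2 (129.8 ± 4.02) and NR2F2 (91.9 ± 2.77) were the 4 most abundant and held 70.0% of the summed member TPM in control and 66.9% in 4HC. NR2F6 (59.2 ± 0.778) came next. Each of these 5 was above the next in the order without overlap between control samples. Further down, the control samples of ESRRA overlapped those of NR1H2, and NR2C2, NR2C1, RARG and THRA overlapped in turn. NR3C1 overlapped RXRA, NR1D1, NR6A1 and NR4A1 overlapped in turn, and so did PPARA, ESR1 and PGR. Variation between control samples was lowest for NR4A2, with a coefficient of variation of 0.557%, and highest for NR1D1, with 20.6%.

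**Figure D2:**
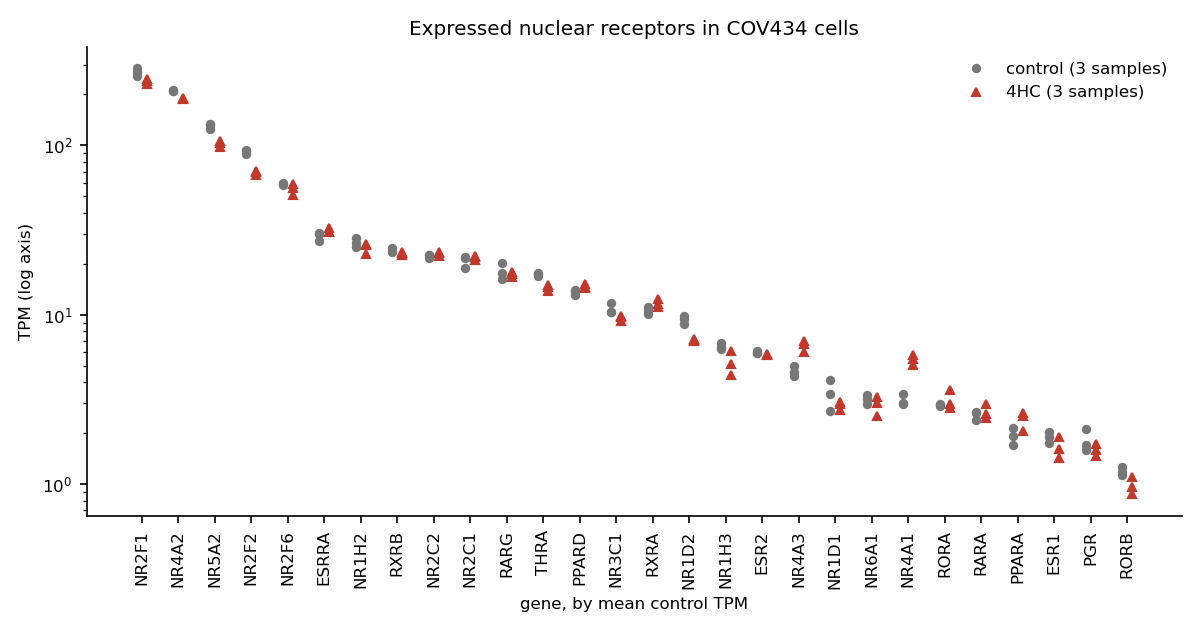
TPM of the 28 expressed nuclear receptors in each of the 3 control samples (grey circles) and 3 4HC samples (red triangles), on a log axis and ordered by mean control TPM. The points of NR2F1, NR4A2, NR5A2 and NR2F2 stand at the left above 60 TPM in all 6 samples, with the 4HC triangles below the control circles.

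The summed TPM of all members was 1005, 1016 and 997.7 in the control samples and 907.5, 901.9 and 880.2 in the 4HC samples. The groups did not overlap, and the 4 most abundant receptors, all called lower, made up most of the sum.

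The NR4A receptors are orphan members induced as immediate early genes by many stimuli, and they bind DNA as monomers or dimers without a known hormone. Their transcripts moved in both directions. NR4A1 (Nur77; chr12:52022832-52059507, plus strand, GRCh38, GENCODE v29) measured 2.99, 3.42 and 3.02 TPM in the control samples and 5.50, 5.83 and 5.08 TPM in the 4HC samples. Every treated sample was above every control. Its log2 fold change was 0.78 (SE 0.130, adjusted p = 2.97e-06), the largest in size among the called members, on 72.05 to 138.44 expected counts per sample. NR4A3 (NOR1; chr9:99821855-99866891, plus strand) measured 5.00, 4.57 and 4.33 TPM in control and 6.76, 6.01 and 7.04 TPM in 4HC. These groups did not overlap either, and the log2 fold change was 0.53 (SE 0.077, adjusted p = 1.75e-07). NR4A2 (NURR1; chr2:156324432-156342348, minus strand), a factor known for dopaminergic neurons, measured 209, 210.9 and 211.5 TPM in control and 189.9, 188.3 and 187.5 TPM in 4HC. It went the other way, lower in every treated sample, with a log2 fold change of -0.15 (SE 0.032, adjusted p = 0.000109).

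NR4A2 was by far the most abundant of the 3 in this line. It held 96.3% to 96.6% of the summed NR4A TPM in control and 93.9% to 94.1% in 4HC. The sum was 217.2 to 218.9 TPM in control and 199.6 to 202.1 TPM in 4HC, so the family total followed NR4A2 while its other members rose. For NR4A1, the transcript NM_173157 held 80.7% of the gene's counts and had a log2 ratio of 0.94 with no overlap between groups. For NR4A3, NM_006981 held 88.0% and had a log2 ratio of 0.69, again without overlap, while NM_173200 (11.0%) overlapped and ran from 0 to 91.36 expected counts among the controls alone. For NR4A2, NM_006186 (55.6% of counts, -0.16) and NM_173173 (22.6%, -0.17) did not overlap between groups, and XM_017004220 (12.7%, -0.13) did. These splits between transcripts that share exons are estimates and were not tested.

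The 130 bases before the RefSeq start are shown for the rising NR4A3 and the falling NR1D2, the only 2 whose RefSeq start, among the 8 called members for which this distance could be measured, lay within 30 bases of the annotated start of the transcript with the most counts. They were searched for TGACG, the core of the cAMP response element through which immediate early genes are often induced. Capitals mark this motif on either strand. The sequences are from RefSeq promoter windows of GRCh38.p14 and both read along the plus strand.
NR4A3, chr9:99821755-99821884: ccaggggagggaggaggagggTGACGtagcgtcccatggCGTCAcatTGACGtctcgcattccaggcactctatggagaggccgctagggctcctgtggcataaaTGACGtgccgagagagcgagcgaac
NR1D2, chr3:23945156-23945285: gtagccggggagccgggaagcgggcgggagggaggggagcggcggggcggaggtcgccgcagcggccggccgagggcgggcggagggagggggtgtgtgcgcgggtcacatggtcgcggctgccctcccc
The NR4A3 stretch held 4 matches and the NR1D2 stretch held 0. In the whole windows of 300 bases, which also take in the start, NR4A3 again had 4 and NR1D2 had 1. Both genes thus have the motif by the measure used for the background. A further NR1D2 window (chr3:23945871-23946170) had matches at -204 and -16 relative to its start. Windows of NR3C1 and NR5A2, both called lower, also held the motif. No match was found in the windows of NR4A1 and RXRA, both called higher, or of THRA, NR2F1 and NR2F2, called lower. The nearest NR4A1 window lay 13687 bases from the annotated start of its transcript with the most counts. For NR2F2 the distance was 1848 bases, so for these genes the lack of a match does not describe that start. NR4A2 had no RefSeq window and was not searched. Over all RefSeq promoter windows of 300 bases, 24.6% of 35116 held TGACG on either strand, as did 21 of 96 windows of the members. AGGTCA, the core motif that many nuclear receptors bind, was in 13.8% of all windows and in 16 of the 96. A match of letters is a description of the window and not evidence of a bound site.

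NR5A2 (LRH-1; chr1:200027602-200177424, plus strand), a receptor of granulosa cells that drives steroidogenic and cholesterol genes, was downregulated. It measured 133, 125 and 131 TPM in the control samples and 98.4, 103.9 and 105.6 TPM in the 4HC samples. All 3 treated samples lay below all controls, at a log2 fold change of -0.33 (SE 0.034, adjusted p = 2.51e-11). Of its transcripts with at least 10% of the counts, XM_017000904 (36.7%, log2 ratio -0.42) and NM_001276464 (12.4%, -0.50) did not overlap between groups, whereas XM_011509384 (25.2%, -0.17) did. Its relative NR5A1 (SF-1), the master regulator of steroid synthesis in gonads and adrenals, was at most 0.10 TPM in any sample and was not tested.

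The NR2F receptors (COUP-TFs) are orphan repressors and activators known from development of mesenchyme, vessels and gonads. NR2F2 (COUP-TFII; chr15:96325938-96340263, plus strand) measured 88.8, 93.2 and 93.85 TPM in control and 70.1, 67.1 and 70.7 TPM in 4HC. It was lower in every treated sample, at a log2 fold change of -0.36 (SE 0.035, adjusted p = 1.93e-12). NR2F1 (COUP-TFI; chr5:93583224-93594615, plus strand) measured 272.1, 285.3 and 258.1 TPM in control and 248.3, 239.6 and 229.8 TPM in 4HC. Its groups did not overlap, and the log2 fold change was -0.16 (SE 0.033, adjusted p = 0.000116). NR2F6 was 59.2 ± 0.778 TPM in control and 55.4 ± 4.36 in 4HC, and its difference was not called (-0.09, adjusted p = 0.153).

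The transcripts of NR2F2 were unequal. NM_021005, with 78.5% of the gene's counts, had a log2 ratio of -0.24. NM_001145155, with 11.7%, went from 576.4 ± 28.4 expected counts in control to 316.2 ± 32.2 in 4HC (log2 ratio -0.85), and neither transcript overlapped between groups. For NR2F1, NM_005654 had a log2 ratio of -0.11 without overlap and XM_017009797 had -0.19 with overlap.

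Thyroid hormone receptors bind thyroid hormone and act mainly as heterodimers with a retinoid X receptor. THRA (chr17:40058290-40093867, plus strand) measured 17.4, 16.9 and 17.8 TPM in control and 15.0, 13.8 and 14.5 TPM in 4HC. The groups did not overlap, and the log2 fold change was -0.31 (SE 0.058, adjusted p = 1.71e-05). Its 2 transcripts with over 10% of counts, NM_199334 and NM_003250, had log2 ratios of -0.38 and -0.26. THRA shares 263 exonic bases (chr17:40093020-40093282) with NR1D1 on the opposite strand. The strandedness of the counting is not given in the sources used here, so reads from that stretch cannot be assigned to either gene. THRB was at most 0.09 TPM.

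NR1D1 and NR1D2 (REV-ERBs) are heme-binding repressors in the circadian clock and compete at shared sites with the ROR activators. NR1D2 (chr3:23945260-23980618, plus strand) measured 9.45, 8.83 and 9.78 TPM in control and 7.04, 7.10 and 7.23 TPM in 4HC. It was lower in all treated samples, with a log2 fold change of -0.38 (SE 0.065, adjusted p = 4.49e-06). The estimated split between its 2 main transcripts swung among replicates of a group and gave no ordering. NR1D1 was 3.42 ± 0.705 TPM in control and 2.92 ± 0.172 in 4HC, and was not called (log2 fold change -0.22, adjusted p = 0.273). RORA (0.10) and RORB (-0.29, adjusted p = 0.0714) were not called either.

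Retinoid X receptors are the shared partners of the heterodimeric members. RXRA (chr9:134317098-134440585, plus strand) measured 11.2, 10.1 and 10.6 TPM in control and 12.4, 11.2 and 11.6 TPM in 4HC. The groups overlapped in TPM, though not in CPM, the counts scaled to library sizes adjusted by TMM normalization. The log2 fold change was 0.15 (SE 0.057, adjusted p = 0.0383). This call was lost when control replicate 2 (adjusted p = 0.146), control replicate 3 (0.112), 4HC replicate 1 (0.2) or 4HC replicate 3 (0.052) was left out, in DESeq2 (0.171), in limma (0.135 and 0.133 with the pseudocounts 1 and 0.1) and without the count filter (0.0535). RXRB, the more abundant of the pair at 24.1 ± 0.564 TPM in control, was not called (-0.04, adjusted p = 0.635).

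Steroid receptors were mostly at low levels. NR3C1, the glucocorticoid receptor (chr5:143277931-143435512, minus strand), was the highest of them and measured 11.7, 10.3 and 10.4 TPM in control and 9.88, 9.71 and 9.21 TPM in 4HC. The treated samples were all lower, at a log2 fold change of -0.16 (SE 0.056, adjusted p = 0.0222). NR3C1 did not pass in DESeq2 (adjusted p = 0.0857) or limma (0.0885 and 0.0876), nor in edgeR when control replicate 1 (0.2) or 4HC replicate 3 (0.0725) was omitted. ESR2, the main estrogen receptor of granulosa cells, was 5.99 ± 0.101 TPM in control and 5.83 ± 0.0651 in 4HC (log2 fold change -0.09, adjusted p = 0.33). ESR1 was 1.89 ± 0.135 TPM and PGR was 1.80 ± 0.270 TPM in control, and neither was called (-0.17 and -0.19). NR3C2, the mineralocorticoid receptor, was tested but below 1 TPM, and its estimate of -0.58 had the widest error (SE 0.348, adjusted p = 0.194).

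The remaining ligand-activated and orphan receptors were not called. PPARD (0.14, adjusted p = 0.0816) and PPARA (0.23, adjusted p = 0.0764), sensors of fatty acids, missed the threshold of 0.05. So did the oxysterol receptor NR1H3 (-0.33, adjusted p = 0.0827). The more abundant oxysterol receptor NR1H2 was 26.7 ± 1.60 TPM in control and 24.9 ± 1.79 in 4HC (-0.09). ESRRA, an orphan regulator of mitochondrial genes, was 29.2 ± 1.66 TPM in control and 31.5 ± 1.08 in 4HC (0.12, adjusted p = 0.08). NR2C2, an orphan testicular receptor, was 22.3 ± 0.546 TPM in control and 23.0 ± 0.636 in 4HC (0.04). The retinoic acid receptors RARA (0.10) and RARG (-0.05) and the orphans NR2C1 (0.07) and NR6A1 (-0.06) had log2 fold changes of 0.10 or less in size. Over the 18 expressed members without a call, the absolute log2 fold change was 0.04 to 0.33, and a missed threshold does not show that their levels were equal.

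The other 13 members in the table did not pass the count filter. They were THRB, RARB, PPARG, VDR, NR1I2, NR1I3, HNF4A, HNF4G, NR2E3, ESRRB, ESRRG, NR5A1 and NR0B1, with at most 12 expected counts and 0.45 TPM in any sample. NR1I2, a xenobiotic sensor, and HNF4A, a regulator of liver and gut genes, were listed at 0 in all 3 controls. A difference between groups was not detectable for these genes at this depth.

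Genes that work with the receptors were followed in lists of cofactors, chaperones, ligand enzymes and targets. Of 22 tested coactivators, 2 rose and 10 fell (median log2 fold change -0.07), and only 1 rose in limma or with control replicate 3 or 4HC replicate 2 omitted. NCOA3, a steroid receptor coactivator, fell by 0.37 on the log2 scale (adjusted p = 1.38e-10), PPARGC1B, a PGC-1 coactivator of ESRRA, fell by 0.35 (adjusted p = 0.00232, and 0.0635 in limma on log2(TPM + 1)), and the acetyltransferase KAT2B rose by 0.43 (adjusted p = 9.58e-08). Of 14 corepressors, 0 rose and 3 fell (median -0.06): NRIP1 fell by 0.31, TBL1X by 0.21 and HEXIM1 by 0.15. Of 10 receptor chaperones, 0 rose and 7 fell (median -0.17), among them HSP90AB1 (-0.35, adjusted p = 6.76e-15), HSPA8 (-0.29) and the immunophilin FKBP4 (-0.29). HSP90AA1 was not called (0.02, adjusted p = 0.677), nor were BAG1 (0.07) and STUB1 (0.05). For corepressors and chaperones the number that rose was also 0 at an unadjusted p under 0.05 in edgeR and in DESeq2. These medians stand beside 0.005 over all tested genes. The share called was 54.5% of the coactivators, 21.4% of the corepressors and 70% of the chaperones, beside 36.4% of all genes tested. Over all genes tested, 19.2% were called higher and 17.1% lower. The share of corepressors called lower was thus near the background and is not a result about that list.

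Of 18 genes of ligand synthesis, breakdown and carriage, 4 rose and 3 fell, so that 38.9% were called beside 36.4% of all genes tested. In limma 2 rose, but CYP26B1, below 1 TPM in every sample, was not tested there. CYP26B1, which breaks down retinoic acid, rose by 0.99 on the log2 scale (SE 0.259, adjusted p = 0.00187) from a low level of 12 to 19 expected counts in control, and the aromatic amino acid and thyroid hormone carrier SLC16A10 rose by 0.40 (adjusted p = 0.00082, and 0.367 in limma). Of 16 receptor target genes, 3 rose and 5 fell, or 50% beside the same 36.4%. These counts were not stable: in DESeq2 1 rose and 3 fell, with library size as the only scaling 5 rose and 2 fell, and 2 fell when control replicate 1, control replicate 3, 4HC replicate 1 or 4HC replicate 2 was omitted. LPCAT3, an oxysterol receptor target, rose by 0.26 (adjusted p = 2.74e-05). ABCA1 rose by 0.63 (adjusted p = 0.0276) and DUSP1 fell by 0.20 (adjusted p = 0.0495), and neither call held in DESeq2. ABCA1 was no longer called when control replicate 1 (adjusted p = 0.172), control replicate 2 (0.0837) or 4HC replicate 1 (0.181) was omitted, and DUSP1 passed in just 1 of the 6 fits with a sample omitted, that without 4HC replicate 3. DUSP1 also missed the threshold with a replicate block (0.0609), with library size only (0.0808) and without the count filter (0.0525). Of 15 clock genes, 2 rose and 5 fell, or 46.7% beside 36.4%. The number that rose was 0 in DESeq2 (1 at an unadjusted p under 0.05), in limma and with control replicate 1, control replicate 3 or 4HC replicate 1 omitted. NPAS2, below 1 TPM in every sample, was not tested in limma. DBP fell by 0.32 and TEF by 0.24, while PER1, named after its values were seen and with overlapping groups, rose by 0.19 (adjusted p = 0.0129) and NPAS2 rose by 0.88 (adjusted p = 0.0377) on 8 to 18 expected counts, a call that did not hold in DESeq2 (0.203) or with any 1 of the 6 samples omitted (0.0561 to 0.118).

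Of the 13 steroidogenic genes placed under NR5A1, 4 were tested, and FDXR and FDX1 rose while SCARB1 fell. That is 75% beside 36.4% of all genes tested, a share that rests on only 4 genes. FDXR, which passes electrons to mitochondrial P450 enzymes and is also known as a p53 target, went from 87.5 ± 2.30 to 216.3 ± 12.1 TPM (log2 fold change 1.32, SE 0.041, adjusted p = 7.24e-32). FDX1 rose by 0.16 and the lipoprotein receptor SCARB1 fell by 0.15 (adjusted p = 0.000656). FDX1 did not pass in DESeq2 (adjusted p = 0.0966), nor with control replicate 2 (0.132) or 4HC replicate 2 (0.121) omitted. HSD3B2, the other tested gene, was 0.967 ± 0.303 TPM in control and 1.16 ± 0.297 in 4HC, and was not called (0.28, adjusted p = 0.534). STAR, CYP17A1, CYP19A1 and HSD3B1 were below 0.1 TPM in every sample. Among the 4 tested granulosa markers, WT1 fell by 0.35 and KITLG by 0.24, or 50% called beside 36.4% of all genes tested. The part of WT1 and KITLG in the changes of NR5A2 and NR2F2 was not tested.

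**Figure D3:**
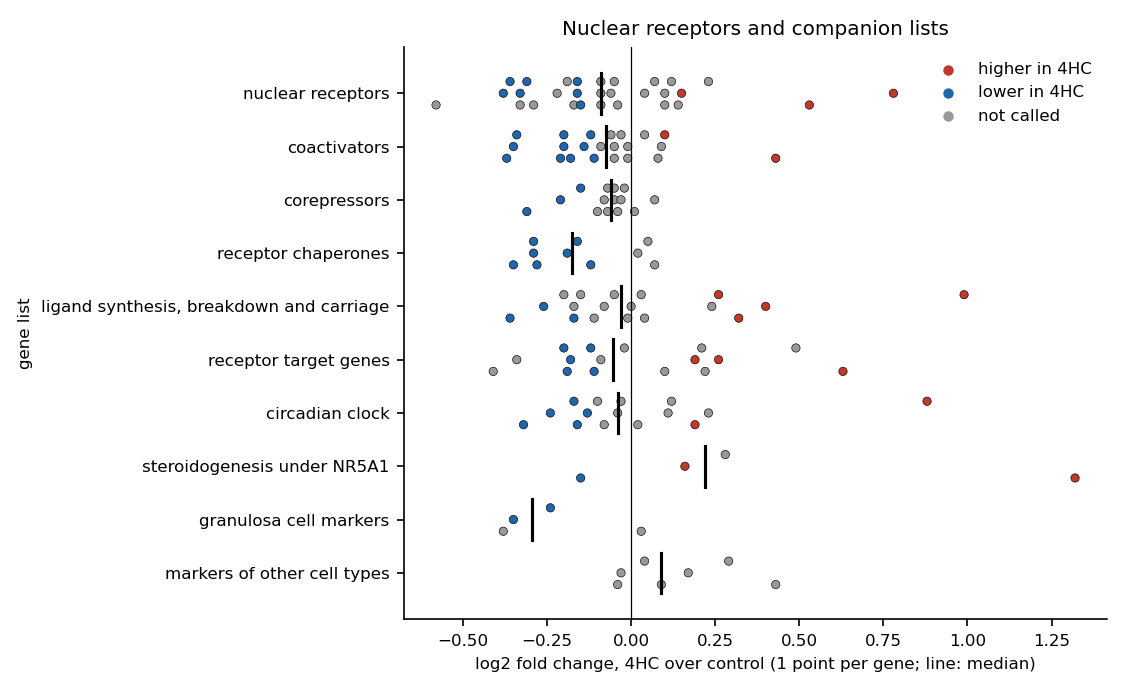
Log2 fold change of 4HC over control for each tested gene of the nuclear receptors and of 9 companion lists, with 1 point per gene, coloured by call, and a vertical line at each list's median. The nuclear receptor median is -0.09, the receptor chaperones are all at or below 0.07 with a median of -0.17, and FDXR lies farthest right at 1.32.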

How the data were processed

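RNA-seq of 6 COV434 samples was analysed. The authors filtered reads with SOAPnuke and worked on the Dr. Tom system. The submitters' processing notes name HISAT2, Bowtie2, RSEM 1.3.1 and DESeq2 1.4.5 and the build GRCh38.p13, without roles. The authors deposited expected counts per gene and transcript, which were rounded to whole numbers here, and TPM and FPKM scaled to length and library size. The authors' own fold changes and p-values were not used.

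Counts were tested with edgeR 4.0.16 (R 4.3.3): TMM normalization, filterByExpr, quasi-likelihood F-test over 12368 genes, Benjamini-Hochberg adjustment, a threshold of 0.05. The common biological coefficient of variation was 0.0277. The scripts were tested on simulated data. Alternatives used DESeq2 1.42.0, limma 3.58.1 on log2(TPM + 1) and log2(TPM + 0.1), other filters and scalings, a replicate block and leaving out each sample. An exact permutation test of 3 against 3 cannot go below 0.1.

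Groups came from sample titles. Per-sample values are given for each called member, the 5 most abundant uncalled members are described, and up to 3 called genes with the largest change are named per companion list, at a mean of 1 CPM or more in either group. One gene that this rule takes is not reported here. The members and lists were chosen with earlier results of these data known. Gene positions are from GENCODE v29 and promoter windows from RefSeq.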

Additional observations from a re-analysis of the deposited data

How the results depend on the processing

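Of the 10 called members, 8 (NR4A1, NR4A3, NR2F1, NR2F2, NR4A2, NR5A2, NR1D2 and THRA) kept their call and direction in all 14 alternatives run, and 0 values reversed. RXRA and NR3C1 did not, and their adjusted p-values are given with their levels. With library size as the only scaling, 5 members were higher (PPARD and ESRRA were added) and 7 lower, against 3 and 7 in the reported fit, and over all genes 2725 were higher and 1735 lower, against 2379 and 2118. The median of all genes moved between -0.008 and 0.025 over the settings. Leaving out 1 sample gave 9 to 12 members called, 2 to 3 higher and 6 to 9 lower. Without control replicate 2, PPARA passed (adjusted p = 0.0255), without control replicate 3, PGR (0.0393), without 4HC replicate 2, RORB (0.0337) and NR2F6 (0.0287), and without 4HC replicate 3, PPARD (0.044). NR1H3 passed in limma (0.0344 and 0.0357). DESeq2 called 8 members. A floor of 2 TPM left 24 members expressed, and FPKM of 1 left 27.

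Replicate numbers are shared by the groups only as numbers. Same-numbered samples had correlated deviations of 0.00866, 0.0694 and 0.0302, so they were not taken as pairs. A fit with the replicate block called 10 members, 3 higher and 7 lower, and 4213 genes, against 4497.

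At this depth NPAS2 had 8 to 18 expected counts per sample, and the 13 members that were not tested had at most 12.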
